A study of Mus musculus with 6 samples.

Results

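The pigment cell genes examined here are Mitf, Dct, Pmel, Tyrp1, Tyr, Mlana, Kit and Kitl, 8 of the 55401 genes in the deposited table, each found by its symbol. Melanoblasts are the precursors of melanocytes. They arise from the neural crest and migrate beneath the skin of the face and body, whereas the retinal pigment epithelium of the eye makes melanin with many of the same genes but arises from the optic cup. MITF is the transcription factor that drives the pigment cell program, DCT, TYRP1 and TYR are the enzymes of melanin synthesis, PMEL forms the fibrils on which melanin is laid down, and MLANA is a melanosome protein. The receptor KIT on melanoblasts and its ligand KITL, which is made by surrounding cells, are needed for melanoblast survival and migration. KIT also marks blood progenitors and mast cells.

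Bulk RNA was sequenced from the frontonasal and maxillary prominences of mouse embryos at E10.5, from 3 mutants and 3 sibling controls. The mutants, named Tfap2Δ/NCKO, had a null allele over a floxed allele at each of Tfap2a and Tfap2b and also carried Wnt1:CRE, which deletes floxed exons in neural crest cells before they migrate. Cells in which the CRE did not act, among them surface ectoderm and optic cup, were therefore heterozygous for both genes. The paper also found brain components among cells labelled through Wnt1:CRE, so brain need not have been heterozygous throughout. The controls were CRE-negative littermates whose alleles of these genes could be of any kind, so an effect of the Wnt1:CRE transgene cannot be told apart from that of losing TFAP2. The question was which midface genes depend on TFAP2 in the neural crest. The methods describe 3 littermates of each genotype, so each library was read as 1 embryo.

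The 6 libraries held 68119668 to 77555252 estimated counts, and 3 counts in a library corresponded to 0.0387 to 0.0440 counts per 1000000 (CPM). The targeted genes stayed detectable at gene level: Tfap2a was at 30.4, 33.1 and 35.1 CPM in controls and 31.5, 28.6 and 28.6 in mutants, and Tfap2b at 90.1, 88.7 and 97.2 against 84.1, 75.6 and 77.7. Neither gene passed the test (edgeR adjusted p = 0.684 and 0.260), and gene totals do not show whether the floxed exons were lost. Y-linked genes were expressed in control 2 and in all 3 mutants but summed to at most 0.0801 CPM in controls 1 and 3. Of 19612 genes with enough counts to test, 64 were called by the quasi-likelihood test of edgeR at a Benjamini-Hochberg adjusted p below 0.05 and a log2 fold change beyond 0.32 in size, or 0.326% of those tested (43 lower and 21 higher in mutants). Facial mesenchyme markers such as Prrx1, Alx1 and Alx4 were present in every library. Markers of optic cup, forebrain, surface ectoderm, blood and macrophages were also present, so the dissected tissue held more than crest-derived cells.

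Before the values, the upstream sequences of the genes that carry the question of MITF targets are shown. RefSeq start sites were available for 6 of the 8 genes and gave 9 windows of the 250 bases before the start (GRCm38.p6, which is mm10). Pmel and Mlana had none. The letters CATGTG, the core that MITF binds, were searched on both strands and were present in 3 of the 6 genes, Tyrp1, Tyr and Dct, and in 12.3% of the 32851 windows of all genes. The M-box, in which that core follows AGT and precedes CT, was in the Tyrp1 window, from 49 to 39 bases before the start, and in the Tyr window, from 24 to 14 bases before it. Of all windows, 7 held it. The Dct window held the core 2 times, once on each strand, and no exact M-box. Its core nearer the start follows GGT and precedes CT, so only the leading A of the M-box is missing there. Capitals mark CATGTG or its reverse complement CACATG in Tyrp1 (chr4:80833963-80834212, plus strand), Tyr (chr7:87493513-87493762, minus strand) and Dct (chr14:118052247-118052496, minus strand), each printed 5′ to 3′ along its gene.
Tyrp1: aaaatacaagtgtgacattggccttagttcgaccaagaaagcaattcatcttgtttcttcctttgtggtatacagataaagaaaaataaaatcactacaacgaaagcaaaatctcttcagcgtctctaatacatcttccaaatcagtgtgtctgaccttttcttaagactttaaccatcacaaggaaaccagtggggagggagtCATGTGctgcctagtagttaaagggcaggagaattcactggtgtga
Tyr: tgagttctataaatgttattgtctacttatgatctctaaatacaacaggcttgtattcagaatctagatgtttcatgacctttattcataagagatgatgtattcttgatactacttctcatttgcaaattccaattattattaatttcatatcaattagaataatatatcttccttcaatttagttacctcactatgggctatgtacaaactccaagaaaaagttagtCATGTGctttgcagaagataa
Dct: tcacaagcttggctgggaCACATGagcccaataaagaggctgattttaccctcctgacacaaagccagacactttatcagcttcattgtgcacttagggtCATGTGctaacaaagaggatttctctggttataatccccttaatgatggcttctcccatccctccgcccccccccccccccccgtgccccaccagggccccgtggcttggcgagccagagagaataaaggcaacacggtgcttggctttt

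Mitf is transcribed from several alternative promoters, and the most 3′ of them is the one used in melanocytes. RefSeq gave 3 start sites for Mitf, none with CATGTG before it. The window before the most 3′ start (chr6:97991533-97991782, plus strand) held the cyclic AMP response element TGACGTCA, in capitals here, from 153 to 146 bases before the start. Those letters were in 1.55% of all windows, on either strand.
Mitf, most 3′ start: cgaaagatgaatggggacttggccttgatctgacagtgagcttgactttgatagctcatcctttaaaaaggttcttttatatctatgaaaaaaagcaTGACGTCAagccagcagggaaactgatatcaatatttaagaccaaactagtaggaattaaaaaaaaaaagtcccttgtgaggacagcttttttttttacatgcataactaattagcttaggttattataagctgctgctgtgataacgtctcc
SOX10 and TFAP2 are also regulators of pigment genes, so their motifs were searched too. The SOX core ACAAAG (16.5% of all windows, either strand) occurred 2 times before Dct and 1 time before Tyrp1. The AP-2 motif GCCNNNGGC (13.7% of all windows) was found only before Kit among these 6 genes, as GCCCCGGGC before both of its overlapping starts. These matches describe letters in short windows and do not show binding.

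Mitf was lower in all 3 mutants than in any control, but its difference did not pass the test across all genes. Mitf (ENSMUSG00000035158.15, chr6:97807052-98021349, plus strand) was at 6.02, 6.10 and 5.36 CPM in controls and 4.99, 3.36 and 4.49 CPM in mutants. The groups did not overlap, and mutant 2 was the lowest. Mean expression was 5.83 ± 0.407 in controls and 4.28 ± 0.837 in mutants (SD, n = 3 each), a mutant level 0.735 times that of the control in the fit. The log2 fold change was -0.44 (SE 0.15, 95% interval -0.80 to -0.09), with an edgeR p of 0.0192 and an adjusted p of 0.450. Of all genes tested, 6.24% had every control above every mutant. Gene-level counts do not separate the transcripts from the alternative Mitf promoters.

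**Figure D1:**
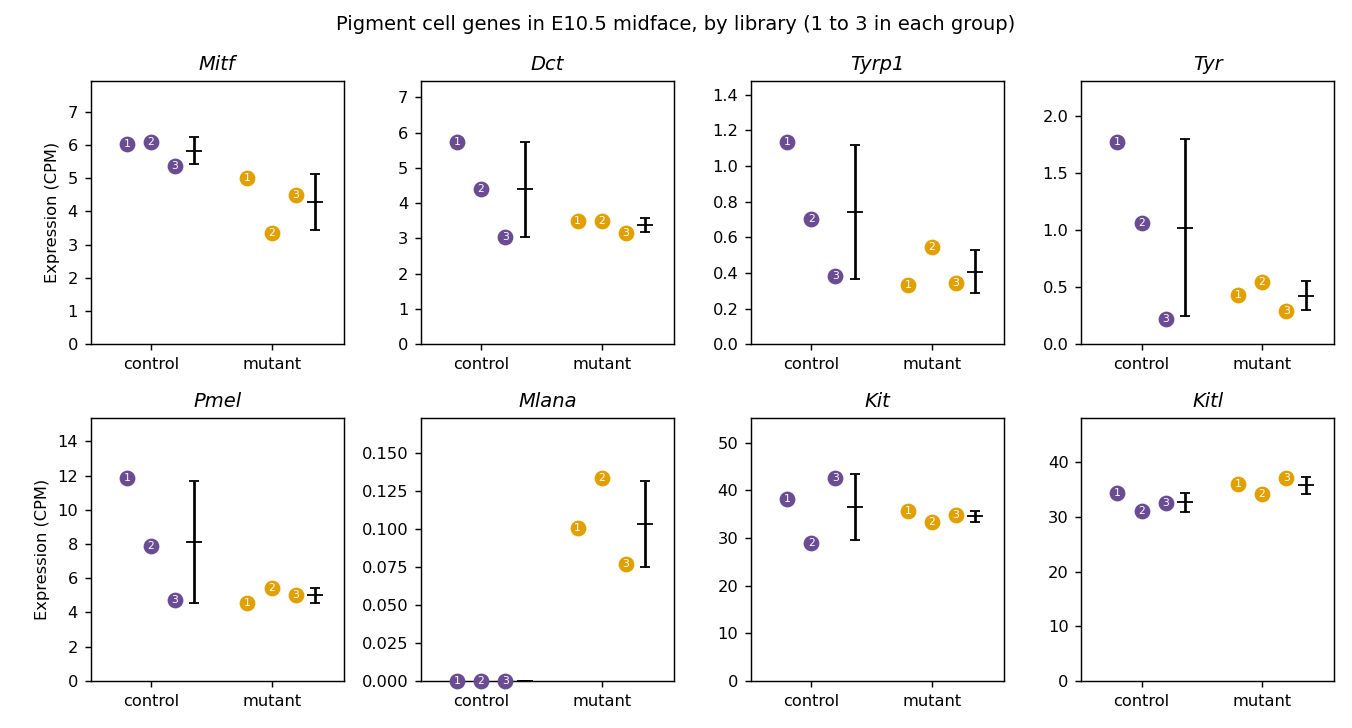
Expression of the 8 pigment cell genes in CPM (vertical axis, linear from 0) in each control (purple, numbered 1 to 3) and mutant (orange, 1 to 3), with bars for the group mean and SD. Mitf was at 5.36 to 6.10 CPM in controls and 3.36 to 4.99 in mutants, while control 3 was among the mutants or below them for Dct, Tyr, Pmel and Tyrp1, and Mlana was at 0 in each control.

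The 3 melanin enzymes were expressed at low levels, and the controls differed from one another more than the mutants did. Dct (ENSMUSG00000022129.4, chr14:118012790-118052244, minus strand), which encodes dopachrome tautomerase and is an early melanoblast marker, was at 5.74, 4.40 and 3.04 CPM in controls and 3.49, 3.51 and 3.16 CPM in mutants. Controls 1 and 2 were above all mutants and control 3 was below them. The mutant mean of 3.38 ± 0.195 against 4.40 ± 1.35 (SD, n = 3 each) gave a log2 fold change of -0.38 (SE 0.21, 95% interval -0.86 to 0.11), with an edgeR adjusted p of 0.797.

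Tyrp1 (ENSMUSG00000005994.14, chr4:80834123-80851719, plus strand), which encodes tyrosinase-related protein, held 85, 51 and 29 counts in controls and 23, 37 and 27 in mutants. These were 1.14, 0.702 and 0.384 CPM against 0.330, 0.548 and 0.345 CPM. Control 1 and control 2 were again the highest, and control 3 lay within the mutants. The log2 fold change was -0.86 (SE 0.41, 95% interval -1.80 to 0.07), with an edgeR adjusted p of 0.691.

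Tyr (ENSMUSG00000004651.6, chr7:87424771-87493512, minus strand), which encodes tyrosinase, the enzyme of the rate-limiting step, held 133, 77 and 17 counts in controls and 30, 37 and 23 in mutants. The corresponding levels were 1.78, 1.06 and 0.225 CPM against 0.430, 0.548 and 0.294 CPM. Control 3 was the lowest of all 6 libraries and control 1 was 7.90 times control 3, whereas the mutants spanned 1.86 times. The fitted mutant level was 0.415 times that of the control, a log2 fold change of -1.27 (SE 0.66, 95% interval -2.82 to 0.28), with an edgeR adjusted p of 0.764.

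The melanosome proteins Pmel and Mlana had opposite directions. Pmel (ENSMUSG00000025359.10, chr10:128704195-128720238, plus strand) was at 11.8, 7.89 and 4.71 CPM in controls and 4.55, 5.43 and 5.04 CPM in mutants. As for the enzymes, controls 1 and 2 were the highest, and control 3 lay among the mutants as for Tyrp1. Its log2 fold change was -0.70 (SE 0.31, 95% interval -1.43 to 0.02), with an edgeR adjusted p of 0.659. Exons of Pmel overlap those of Cdk2 by 34 bases and of Dgka by 105 bases on the opposite strand. The quantification settings list no strand option, so a part of its counts could belong to those genes.

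Mlana (ENSMUSG00000024806.4, chr19:29697824-29708634, plus strand) was at 0 counts in all 3 controls and at 7, 9 and 6 counts in the mutants. The mutant mean of 0.103 CPM was at least 2.56-fold higher than the level that 3 counts would give per control library. Mlana held too few counts to enter the test, and with every gene kept its edgeR adjusted p was 0.318. Mlana was 1 of 12 genes in the table at 0 in every control with at least 6 counts in every mutant, and 11 genes had the opposite pattern. In every library fewer genes had a count of 3 (429 to 548) than of 2 (1104 to 1341) or of 4 (619 to 759), so low counts were not a plain tally of reads. With all counts divided by 2 the mutant mean was 3.67 counts, and the bound was 1.28-fold.

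Across Dct, Tyrp1, Tyr and Pmel the libraries kept nearly the same order. Their summed level was 20.5, 14.1 and 8.36 CPM in controls 1, 2 and 3 and 8.80, 10.03 and 8.84 CPM in mutants 1, 2 and 3, so control 3 was below each mutant. Over the 6 libraries, and on log2(CPM + 0.5), Pearson's r between pairs of these 4 genes was 0.953 to 0.992. The highest was Dct with Tyr (r = 0.992, Spearman's rho = 1.0), and both rested on the gap between control 1 and control 3 as well as on genotype. With Mitf the same genes had r of 0.422 to 0.542. Control 3 was above every mutant for Mitf but not for these genes, and mutant 2, the lowest library for Mitf, was the highest mutant for all 4. The ratio of the sum to Mitf was 3.40, 2.30 and 1.56 in controls and 1.76, 2.99 and 1.97 in mutants, and so overlapped. In bulk tissue, fewer pigment cells and less RNA per pigment cell cannot be told apart.

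**Figure D2:**
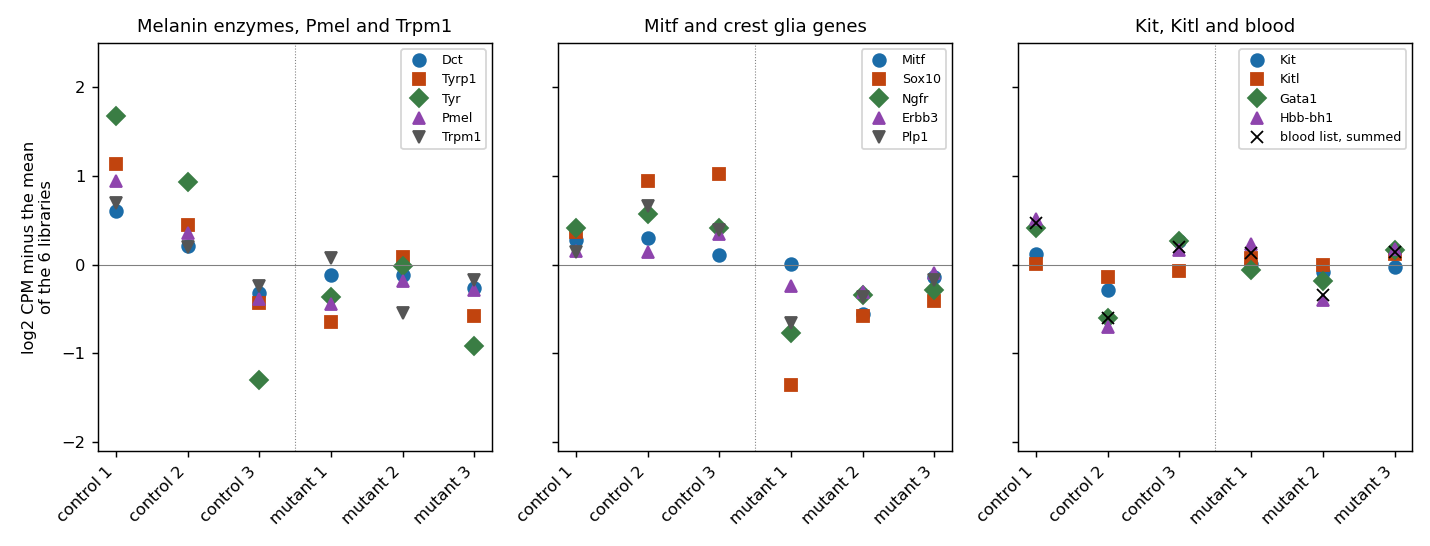
Expression in each library as log2 CPM minus the mean of the 6 libraries (vertical axis) for the melanin enzymes with Pmel and Trpm1 (left), Mitf with crest glia genes (middle), and Kit, Kitl and blood markers (right); the dotted line separates controls from mutants. On the left control 1 is the highest and control 3 lies near the mutants, and in the middle every mutant is below every control for each gene. On the right Kit is lowest in control 2, as is the summed blood list, which is mostly globin (1041 CPM against 1242 to 2191 in the other 5).

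Kit and Kitl were expressed at higher levels than the pigment genes, and neither passed the test between genotypes. Kit (ENSMUSG00000005672.12, chr5:75574916-75656722, plus strand) was at 38.2, 28.9 and 42.5 CPM in controls and 35.6, 33.3 and 34.8 CPM in mutants. All 3 mutants lay between control 2, the lowest, and controls 1 and 3, the highest. The log2 fold change was -0.080 (SE 0.13, 95% interval -0.38 to 0.21), with an edgeR adjusted p of 0.956. That sign was not stable: it was +0.26 with summed Y-linked expression as a covariate (adjusted p = 0.613), +0.24 when only the 4 libraries expressing Y-linked genes were fitted (adjusted p = 0.743) and +0.036 without control 3 (adjusted p = 0.998). Of 12 listed blood progenitor and mast cell markers 10 were tested. The list summed to 1041 CPM in control 2 and 1242 to 2191 CPM in the other libraries. That sum was mostly the globin genes Hba-x and Hbb-bh1 (475 and 432 CPM in control 2). The next most abundant, Cd34 (67.8, 69.8 and 63.8 CPM in controls) and Gata2 (31.9, 38.8 and 36.9), were instead highest in control 2 among controls. Mcpt4 was at 0 in all 6 libraries, and Cpa3 had counts, 2 of them, in mutant 3 alone. Kit had r = 0.881 (rho = 0.886) with the erythroid factor Gata1 over the 6 libraries. How much of the Kit count came from blood cells was not tested.

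Kitl (ENSMUSG00000019966.18, chr10:100015630-100100416, plus strand) was at 34.5, 31.0 and 32.5 CPM in controls and 36.1, 34.2 and 37.1 CPM in mutants. Mutant 2 was below control 1 and the other mutants were above every control. The mutant mean of 35.8 ± 1.48 against 32.7 ± 1.71 (SD, n = 3 each) gave a fitted ratio of 1.10, a log2 fold change of 0.13 (SE 0.063, 95% interval -0.012 to 0.28), with an edgeR adjusted p of 0.696. The ratio of Kit to Kitl was 1.11, 0.930 and 1.31 in controls and 0.986, 0.975 and 0.939 in mutants, and the groups overlapped.

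Divided by the length of all annotated exons, so that genes could be compared, Kitl had the highest mean level at 5.79 CPM per kb and Kit followed at 3.99. Pmel came next at 2.87, then Mitf at 0.816, Dct at 0.660, Tyrp1 at 0.203, Tyr at 0.102 and Mlana at 0.0489 CPM per kb. Among neighbours in this order, the ranges over the 6 libraries overlapped for Kit and Pmel, for Mitf and Dct, for Tyrp1 and Tyr, and for Tyr and Mlana. The other neighbours were separate in every library: Kitl lay above Kit, Pmel above Mitf and Dct above Tyrp1.

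Of the 7 genes tested, none was called in the edgeR fit, against 0.326% of all genes, and DESeq2 and limma-voom also called none. Over all 19612 genes tested, DESeq2 called 279 and limma-voom 58. At an unadjusted edgeR p below 0.05 there was 1 of 7, Mitf, against 7.95% of all genes. The median log2 fold change of the 7 was -0.44, beside 0.0008 over all genes tested, with 6 lower and 1 higher value. Over all genes tested, 9746 values were lower and 9866 higher. Mitf was also the only one of the 7 whose groups did not overlap, and none of the 7 had every mutant above every control, which 7.15% of all genes did. Mlana, which was not tested, was the other gene of the 8 without overlap.

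**Figure D3:**
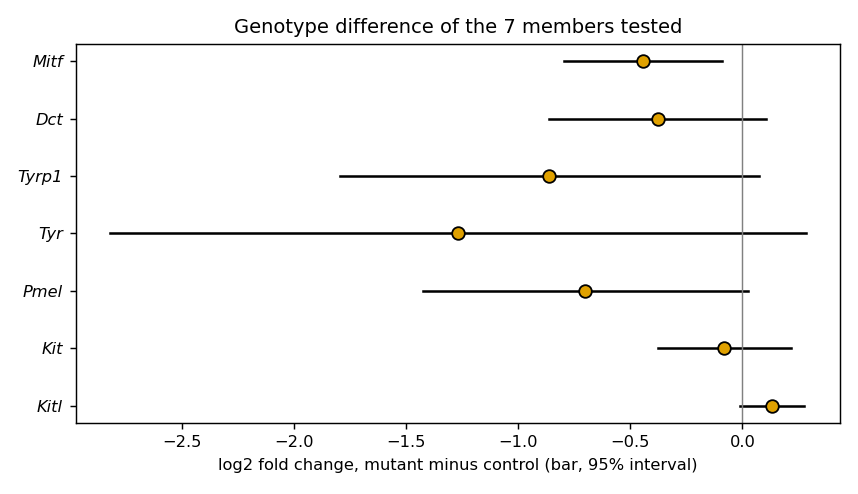
Log2 fold change of mutants against controls (horizontal axis, 0 marked by the line) for the 7 pigment cell genes tested, with 95% intervals from the edgeR fit (n = 3 per group). The interval of Mitf, -0.80 to -0.09, lies below 0 without adjustment for the number of genes, that of Tyr spans -2.82 to 0.28, and the other 5 also cross 0.

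Single libraries set the size of the enzyme and Pmel differences. Without control 1 the log2 fold change was -0.34 for Pmel, -0.61 for Tyr, -0.42 for Tyrp1 and -0.15 for Dct. Without control 3 it was -0.98 for Pmel, -1.75 for Tyr, -1.18 for Tyrp1 and -0.59 for Dct, and the lowest edgeR adjusted p among these 4 was 0.165, for Pmel. Mitf ranged from -0.57 to -0.30 as each library was left out in turn, with adjusted p of 0.363 to 0.777.

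**Figure D4:**
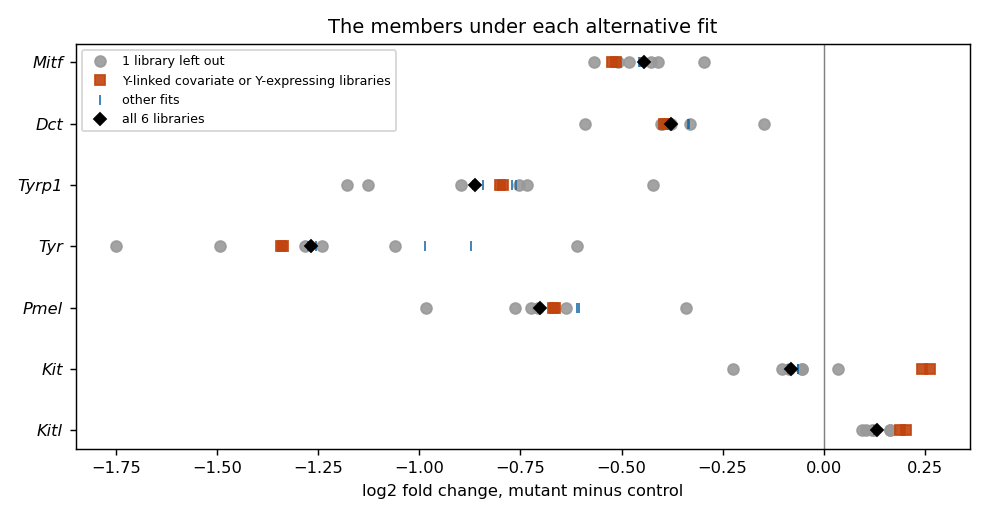
Log2 fold change of mutants against controls (horizontal axis) for the 7 genes tested, fitted on all 6 libraries (black diamonds), with 1 library left out (grey circles), with Y-linked expression as a covariate or with only the libraries expressing Y-linked genes (red squares), and in the other fits (blue ticks). Tyr moved from -1.75 to -0.61 with 1 library left out, and Kit is the gene with values on both sides of 0.

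Upstream of these genes, the factors that specify melanoblasts and guide their migration had lower values in mutants. Of 14 listed genes, 13 were tested, all 13 had lower values, and 3 fell: Pax3, Tbx2 and Ngfr. Of all 19612 genes tested, 0.219% were called lower and 9746 had lower values. The 13 include Tfap2a, which was itself targeted in the mutants (log2 fold change -0.15). Not all 13 stayed lower in each alternative: Ednrb, for example, ranged from -0.34 to 0.11. The median log2 fold change was -0.20. Pax3, the paired box factor that activates Mitf together with SOX10, was at 25.9, 26.5 and 28.3 CPM in controls and 14.1, 12.7 and 13.6 CPM in mutants. It fell in each mutant relative to every control, by 1.00 on the log2 scale (SE 0.072, edgeR adjusted p = 0.000837), and was called in 17 of 17 alternatives.

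Tbx2, a T-box factor of the melanocyte lineage and of facial mesenchyme, was at 141.5, 138.1 and 162.4 CPM in controls and 97.5, 104.2 and 101.1 CPM in mutants, without overlap. Its log2 fold change was -0.55 (edgeR adjusted p = 0.0154). The call was lost when mutant 1 (adjusted p = 0.0592), mutant 2 (0.0722) or mutant 3 (0.0761) was left out and in both fits that took account of Y-linked expression (0.112 and 0.161). Ngfr, the low-affinity neurotrophin receptor of migrating crest and glia, was at 40.2, 45.1 and 40.4 CPM in controls and 17.7, 24.0 and 24.8 CPM in mutants. Every mutant was below every control, and Ngfr fell by 0.92 on the log2 scale (SE 0.12, edgeR adjusted p = 0.0285). It was called in 10 of 17 alternatives: leaving out any library except mutant 1, or taking account of Y-linked expression, gave adjusted p of 0.0654 to 0.161.

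Sox10, the SOX factor that activates Mitf and Dct, had a larger difference than these but was not called by edgeR with genotype as the only term. Sox10 was at 24.7, 36.7 and 38.8 CPM in controls and 7.49, 12.8 and 14.4 CPM in mutants. All mutants were below all controls, with mutant 1 the lowest. The log2 fold change was -1.53 (SE 0.29) with an edgeR adjusted p of 0.175, and DESeq2 called it (adjusted p = 0.00106). The order of libraries for Sox10 was not that of the pigment genes: its lowest control was control 1, in which Dct, Pmel, Tyrp1 and Tyr were highest, and its highest was control 3, in which those 4 genes were lowest.

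Markers of crest glia and Schwann cell precursors, from which some melanocytes arise, had mostly lower values. Sox10, Erbb3, Foxd3 and Ngfr are on this list and on the melanoblast list, so the lists are not separate evidence. Of 9 listed genes 8 were tested, 7 had lower values, 1 fell (Ngfr, counted above) and 5 were called by DESeq2. Over all 19612 genes tested, 9746 had lower values, 0.219% were called lower by edgeR and DESeq2 called 279. Their summed level was 148 to 180.4 CPM in controls and 92.8 to 128 CPM in mutants. Their part in the lower Mitf values was not tested.

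Genes of the pigment cell melanosome had mostly lower values in mutants, but none passed the test. Of 15 listed genes 14 were tested, 11 had lower and 3 higher values, and the median log2 fold change was -0.17. edgeR and limma-voom called none, DESeq2 called 1, and 3 had an unadjusted edgeR p below 0.05. Mreg, which encodes the melanosome transport protein melanoregulin, was at 10.6, 16.0 and 14.1 CPM in controls and 7.82, 7.64 and 8.98 CPM in mutants. Its groups did not overlap, and its log2 fold change of -0.74 had an edgeR adjusted p of 0.114. Mreg was the gene called by DESeq2 (adjusted p = 0.000564), and edgeR called it when control 1 was left out (log2 fold change -0.90, adjusted p = 0.0335). Oca2, a melanosome membrane transporter, was at 0.668, 0.716 and 0.225 CPM in controls and 0, 0.207 and 0.154 CPM in mutants, with control 3 close to the mutants as for Tyr (log2 fold change -2.14, adjusted p = 0.552). Mlph, the melanophilin linker of melanosome transport, had a log2 fold change of -0.82 (adjusted p = 0.608), and Myo5a, the motor of that transport and the most abundant gene of the list, one of 0.0092.

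Trpm1, a cation channel gene that MITF activates in melanocytes, was at 31.1, 22.1 and 16.3 CPM in controls and 20.3, 13.3 and 17.04 CPM in mutants. Control 1 was highest and control 3 was below mutants 1 and 3, so its groups overlapped as those of the enzymes did, and its r with Mitf was 0.814 (rho = 0.771, 6 libraries). Trpm1 had an edgeR adjusted p of 0.823.

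The general machinery of melanosome biogenesis, which other cells also use for lysosome-related organelles, had a median difference near 0. All 17 listed genes, most of them of the BLOC, HPS and AP-3 complexes, were tested, with 9 lower and 8 higher values. Their median log2 fold change was -0.0014. No gene was called by edgeR, DESeq2 or limma-voom, and none had an unadjusted edgeR p below 0.05. The genes of smallest p were Bloc1s4 (log2 fold change 0.22, adjusted p = 0.646), Bloc1s3 (-0.19, adjusted p = 0.688) and Hps6 (0.21, adjusted p = 0.756), all parts of complexes that sort cargo to melanosomes. Ap3d1, an AP-3 subunit and the most abundant gene of the list, had a log2 fold change of -0.017.

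Among the relatives of Mitf in the MiT/TFE family, Tfec had the opposite direction. Tfec, which is expressed in macrophages and in the retinal pigment epithelium, was at 1.11, 1.252 and 0.966 CPM in controls and 2.48, 1.72 and 2.48 CPM in mutants. All mutants were above all controls. The edgeR log2 fold change of 1.01 (SE 0.20) had an adjusted p of 0.111, and DESeq2 called it (adjusted p = 0.0106). Macrophage markers moved the same way, with 10 of 10 tested genes at higher values and C1qb called. Over all 19612 genes tested, 9866 had higher values and 0.107% were called higher. The summed level of the macrophage markers was 26.9 to 38.6 CPM in controls and 51.1 to 72.4 CPM in mutants. The C1qb call was lost in 10 of 17 alternatives, among them the omission of any library except control 2 (edgeR adjusted p of 0.0911 to 0.176). The part of macrophages in the Tfec values was not tested. Tfe3 and Tfeb, the lysosomal members of the family, had log2 fold changes of 0.031 and -0.15, and of the 4 family genes none was called by edgeR or limma-voom and 2 had an unadjusted edgeR p below 0.05.

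**Figure D5:**
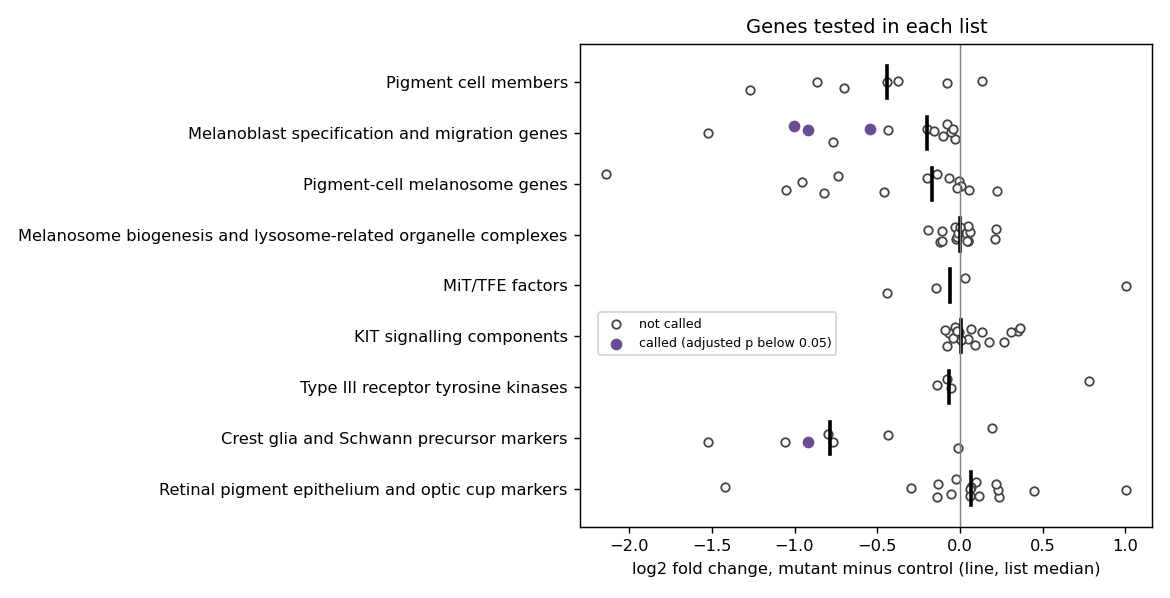
Log2 fold change of mutants against controls (horizontal axis, 0 marked by the thin line) for each tested gene of the pigment cell set and of 8 gene lists, with the list median as a short bar and called genes filled. The 3 called genes of the melanoblast list are Pax3, Tbx2 and Ngfr, Ngfr is repeated in the glia list, and the medians are -0.44 for the pigment cell genes, -0.17 for melanosome genes and 0.064 for optic cup markers.

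Components of KIT signaling also had a median near 0. All 19 listed genes were tested, with 9 lower and 10 higher values and a median log2 fold change of 0.0071. None was called by edgeR, DESeq2 or limma-voom, and 4 had an unadjusted edgeR p below 0.05. The smallest p belonged to Lyn, a SRC family kinase (log2 fold change 0.36, adjusted p = 0.226), Pik3r1, the regulatory subunit of PI3-kinase (0.27, adjusted p = 0.228), and Spry1, an inhibitor of receptor kinase signaling (0.31, adjusted p = 0.293). Ptpn11, the phosphatase SHP2 and the most abundant of the list, had a log2 fold change of 0.0071. Among the receptors related to KIT, 4 of 5 listed were tested and none was called by edgeR or limma-voom. Pdgfra, the crest mesenchyme receptor, had a log2 fold change of -0.14, Pdgfrb -0.056 and the macrophage receptor Csf1r 0.78 (adjusted p = 0.341). DESeq2 called Csf1r.

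Markers of the optic cup, a source of the same pigment transcripts that does not come from the neural crest, were also detected in the dissected tissue. The list of 20 markers had 16 tested genes, 6 with lower and 10 with higher values, and a median log2 fold change of 0.064. edgeR and limma-voom called none, DESeq2 called 1 and 3 had an unadjusted edgeR p below 0.05. The DESeq2 call was Tfec, already counted in the MiT/TFE family, and the 3 genes were Tfec, Lhx2 and Pax6. The list summed to 311 to 329.5 CPM in controls and 334 to 374 CPM in mutants. Lhx2, at a mean of 131 CPM over the 6 libraries, and Pax6 are also on the forebrain list. The sum therefore does not tell eye from forebrain tissue. Rpe65, which defines the mature retinal pigment epithelium, was at 0 in all 6 libraries, as was Crybb2. Others on the list were detected. Rlbp1 had log2 fold changes of -0.53 to -0.18 over the 17 alternatives and was called in none. Rax (-0.80 to 0.20) and Six6 (-0.37 to 0.34) changed sign between alternatives. Cryaa held 0, 114 and 11 counts in controls and 28, 0 and 18 in mutants. Other cell types also had sums that did not overlap between genotypes: facial mesenchyme markers were at 1153 to 1169 CPM in controls and 886 to 929 in mutants, forebrain markers at 807 to 879.5 against 905 to 964 and surface ectoderm markers at 339 to 360.3 against 363 to 433. What share of the pigment transcripts came from eye tissue, or moved with the makeup of the dissected pieces, was not tested.

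For the 5 tested genes with a mean of at least 1 CPM, the most similar patterns were looked up among 15000 genes. Similarity was Pearson's r of log2(CPM + 0.5) over the 6 libraries, which share genotype and library effects. Closest to Mitf were Pcgf3 (r = 0.982), Rhoq (0.980) and Rin2 (0.977). Closest to Dct were Tox (0.979), Nfkbil1 (0.974) and Pmel (0.972), and closest to Pmel were Tox (0.986), Rwdd2a (0.978) and Dct. Closest to Kit were Diaph1 (0.993), Btrc (0.989) and Vdr (0.985), and closest to Kitl were Crry-ps (0.990), Eea1 (0.986) and Cd44 (0.978). Of the 15000 genes compared, 33 had r above 0.95 with Mitf, 12 with Dct, 7 with Pmel, 50 with Kit and 32 with Kitl.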

How the data were processed

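Gene expression was measured by bulk RNA-seq of stranded poly(A) libraries in 3 controls and 3 mutants, grouped by their titles. The authors mapped reads to mm10 with STAR, quantified annotated transcripts with StringTie and made the deposited table of estimated counts with prepDE, which derives counts from coverage and an assumed read length. For versions, the annotation release and that read length, the sources used here give nothing, and the settings list no strand option. The deposited tables also hold the authors' DESeq2 and sleuth comparisons, and none of those columns was used.

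The counts were already whole and were tested on all genes passing edgeR's default expression filter with edgeR 4.0.16 (R 4.3.3; TMM factors, robust quasi-likelihood fit, genotype as the only term, Benjamini-Hochberg adjustment, two-sided). CPM were scaled by TMM. The 17 alternatives included DESeq2 1.42.0, limma 3.58.1 (voom), other filters and scalings, Y-linked expression and omission of each library. The steps were tested on simulated data. Coordinates are those of GENCODE M21, in which 54349 of 55401 gene identifiers were found, and upstream sequences are from RefSeq (GRCm38.p6).

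Named were all 8 genes. Of each pathway list every called gene was named, otherwise up to 3 of smallest p and the most abundant. Of cell type lists, called and abundant genes were eligible, and for each tested gene at a mean of 1 CPM or more, the 3 most similar. Rpe65, Crybb2, Rlbp1, Rax, Six6, Cryaa, Trpm1, Gata1, Mcpt4, Cpa3, Ednrb, Foxd3, Tfap2a and Tfap2b were added after their values were seen. The genes and lists were chosen with earlier results of these data known.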

Additional observations from a re-analysis of the deposited data

How the results depend on the processing

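None of the 7 tested genes was called under any of the 17 alternatives (16 for Tyrp1 and Tyr, which a stricter filter removed), and 6 of the 7 kept their sign in each one run. Kit did not: its log2 fold change was 0.26 with the Y-linked covariate, 0.24 in the libraries expressing Y-linked genes and -0.22 to 0.036 with 1 library left out. The second of these fits has control 2 as its only control, assumed to vary like the mutants. Over all genes, 64 calls became 279 with DESeq2 (62 shared), 37 with the Y-linked covariate (19 shared), 33 in the libraries expressing Y-linked genes (11 shared), and 23 to 63 with 1 library left out. The cause was not tested. A replicate block gave 119 calls (61 shared), none of them among the 7 genes. Under the block Sox10 was called (log2 fold change -1.55, edgeR adjusted p = 0.000865), and calls went from 3 to 5 in the melanoblast list and from 1 to 4 in the glia list. Deviations of same-numbered libraries correlated at 0.083, 0.123 and 0.2, and those of differently numbered ones at -0.135 to -0.001. Every library thus correlated best with its own number. The titles name no litters, and the main fit did not take the numbers as pairs. Whether same-numbered libraries were littermates was not tested. Low counts limit Mlana, Tyr and Tyrp1 most.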
